A study of Canis lupus familiaris with 17 samples.

Results

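GZMK-positive CD8 T cells were selected on their own UMI counts (unique molecular identifiers, 1 per captured transcript) in blood leukocytes of 17 client-owned dogs. A cell was a member when it held at least 1 UMI of CD3E, CD8A and GZMK and no UMI of CD4 or MS4A1. The rule found 4192 members among 84361 cells kept, which was part of a CD8 T cell gate of 8150 cells with the same rule but without the GZMK condition. The 7 healthy dogs gave 1542 members and the 10 dogs with osteosarcoma (OS, a malignant bone tumor) gave 2650. A dog contributed between 60 members (OS dog 3) and 765 members (OS dog 9), with a median of 179.

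The healthy dogs were middle-aged, and the OS dogs were middle-aged or old, had a primary tumor and had received no treatment. Both groups held dogs of mixed breeds and both sexes, and all were labelled Wt. Each library came from the blood of a separate dog, from which leukocytes were recovered on a density gradient with lysis of red cells, and was made with 10x Genomics 3′ v3.1 chemistry. The cells of a dog share their source, so every comparison was made over dogs. Across dogs, 1239 to 7072 cells were kept, with median depths of 3674.5 to 6718 UMIs per cell, and no pair of libraries shared more than 16 barcodes.

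CD8 T cells kill infected or transformed cells through granules that hold perforin and serine proteases called granzymes. Granzyme K, the product of GZMK, is a granzyme associated with memory CD8 T cells that have met antigen and have not reached terminal effector differentiation, whereas granzyme B and perforin are the classical killing molecules. Naive and central memory T cells use the transcription factors TCF-1 and LEF1, the lymph node homing receptor CCR7 and the survival cytokine receptor IL7R. Effector cells carry NK-type receptors and secrete chemokines such as CCL4 and CCL5.

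The proposed markers were checked first. CD8A and GZMK belong to the rule and describe the choice only. GZMK (ENSCAFG00000018379) stood at 298 CPM (a gene's share of all UMIs summed over the members of a dog, scaled to 1000000) in the lowest dog, 557 in the median dog and 695 in the highest. CD8A (ENSCAFG00000007464), the coreceptor for class I antigen, ranged from 220 to 465 CPM. The chemokine CCL4 (ENSCAFG00000018164), which the rule did not use, had a UMI in 77.4% of members (mean over dogs), against 46.2% of CD8 T cells without GZMK and 2.74% of B cells. PDCD1 (ENSCAFG00000013184), the inhibitory receptor PD-1, had a UMI in only 6.95% of members and in 0.0353% of B cells. The median depths of the dogs averaged 5153.56 UMIs in members and 4567.56 in B cells. In GZMK-negative CD8 T cells PDCD1 was found in 4.78%, and in CD4 T cells in 5.03%. CCL4 was found in 83.9% of CD8 T cells without GZMK that carried effector genes (defined below), a higher share than in members, and PDCD1 in 10.1% of them.

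A UMI of GZMB, the gene of granzyme B, was found in 85.9% of members and 1.02% of B cells, and GZMA, the gene of granzyme A, in 56.6% and 0.144%. CCL5, a chemokine of effector cells, was found in 53.5% of members and 2.06% of B cells, and its share varied between dogs from 25.2% to 96.7%. Of naive-associated genes, LEF1 was found in 28.3% of members and 2.53% of B cells, and IL7R in 33.8% and 1.57%. EOMES, a transcription factor of memory and effector CD8 T cells, was found in 15.2% of members and 0.0414% of B cells, and the proliferation gene MKI67 in 1.30% and 4.83%. The inhibitory receptors LAG3 and TIGIT were found in 4.27% and 0.286% of members and 0.906% and 0.370% of B cells, so TIGIT lay at background.

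Not all GZMK transcripts in blood lay in the members. They held between 13.6% and 60.7% of a dog's GZMK UMIs, while CD3E+ cells without CD4 and CD8A UMIs held between 27.8% and 52.9%. Averaged over dogs, a GZMK UMI was found in 20.3% of the latter cells, in 7.45% of CD4 T cells and in 43.1% of NK-like cells. The last value weighs equally the 11 dogs with at least 5 NK-like cells, which held 159 of them. B cells and LYZ-high myeloid cells, which should lack GZMK, showed it in 0.260% and 0.535%, the latter at a median depth of 10725 UMIs. Within the members, 1497 cells (35.7%) held 1 GZMK UMI, 1677 (40.0%) held 2 or 3, and 1018 (24.3%) held 4 or more. GZMK-negative below means that no GZMK UMI was captured.

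The first comparison asked how the members differed from GZMK-negative CD8 T cells of the same dogs. Counts summed per dog and gate entered edgeR's quasi-likelihood test with dog as a block, and a gene was called at an adjusted p (Benjamini-Hochberg) under 0.01 and a log2 fold change beyond 0.58. In the members, 160 of 13155 genes tested (1.22%) were higher and 320 (2.43%) were lower. The higher genes included 5 of 13 granule and killing genes and 6 of 16 NK-type receptors, and the lower genes included 7 of 13 naive and central memory genes.

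KLRK1, the activating receptor NKG2D, ranged over 160, 560 and 912 CPM in members and 101, 267 and 439 CPM in GZMK-negative cells. The ranges overlapped between dogs, yet all 17 dogs were higher in their members (log2 fold change 1.21, SE 0.127, adjusted p = 8.77e-09). CCL4 ranged over 334, 505 and 675 CPM in members and 66.7, 276 and 623 CPM in GZMK-negative cells, with a log2 fold change of 0.95 (SE 0.131, adjusted p = 1.71e-06 by edgeR). PDCD1 ranged over 2.70, 12.6 and 34.1 CPM against 0.710, 7.73 and 25.8 CPM. Its groups overlapped widely, and 13 of 17 dogs were higher in their members (log2 fold change 0.76, adjusted p = 0.00223 by edgeR). The call on PDCD1 was lost without OS dog 2 (log2 fold change 0.58, adjusted p = 0.0155 by edgeR), with healthy dogs alone (0.52, adjusted p = 0.374) and with OS dogs alone (0.90, adjusted p = 0.0145), and so was it without the dog block (0.86, adjusted p = 0.104).

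By function, NK-type receptors rose in 6 of the 16 genes tested, with a median log2 fold change of 0.43 against -0.0039 over all genes. Beside KLRK1, they were KLRG1 (1.08), a marker of antigen-experienced T cells, KLRD1 (0.93), the CD94 chain, KLRB1 (0.92), the CD161 receptor, NCR3 (0.88), the activating receptor NKp30, and SLAMF7 (0.80). Of 13 granule and killing genes 5 rose, namely GZMB (1.04), the death ligand gene FASLG (0.85), GZMA (0.76), CST7 (0.75), a cathepsin inhibitor of cytotoxic cells, and the perforin gene PRF1 (0.72). With healthy dogs alone 4 of these 5 lost their calls, FASLG at 0.48, GZMA at 0.37, PRF1 at 0.51 and CST7 at 0.74, as did NCR3 at 0.49. CST7 also lost its call with OS dogs alone (0.77) and in members with at least 2 GZMK UMIs (0.71). Without the dog block GZMA (0.65), PRF1 (0.74), CST7 (0.69), KLRB1 (0.81) and NCR3 (0.77) were not called. The other granule genes did not pass, such as CTSW at 0.13 and SRGN at -0.02. The transcription factors EOMES (0.97), TBX21 (0.70) and PRDM1 (0.62), which direct effector and memory differentiation, rose. The call on PRDM1 was lost without OS dog 2 (0.54) or OS dog 6 (0.56) and with healthy dogs alone (0.54), and that on TBX21 with healthy dogs alone (0.37), and neither was called without the dog block (0.61 and 0.65). Receptors for interleukin 18 rose through IL18R1 (0.95) and IL18RAP (0.87), whose products form the receptor complex, and CD38, a surface enzyme of activated cells, rose by 0.65. IL2RB, a receptor chain for interleukins 2 and 15, was under the fold threshold at 0.56. It passed under 9 of 27 alternatives, such as OS dogs alone (0.72) and doublets removed (0.58), and stood at 0.12 at 2000 UMIs.

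Among lower genes, 7 of 13 naive and central memory genes fell, with a median of -0.61 over the list. CCR7 ranged over 3.13, 12.3 and 35.4 CPM in members and 9.71, 109 and 249 CPM in GZMK-negative cells. It fell by 3.04 on the log2 scale, in 16 of 17 dogs. TCF7, the gene of TCF-1, ranged over 19.5, 41.0 and 105 CPM in members and 30.2, 102 and 273 CPM in GZMK-negative cells, and was lower in all 17 dogs (log2 fold change -1.39). LEF1 (-2.30), BACH2 (-1.55), a repressor of effector differentiation, FOXP1 (-0.76), a factor of naive quiescence, IL7R (-0.79) and LTB (-0.61), a lymphotoxin gene, fell too. The call on LTB was lost without OS dog 1 (-0.58), 6 (-0.57) or 9 (-0.57) and with healthy dogs alone (-0.45). Those on IL7R and LTB were lost in members with at least 2 GZMK UMIs (-0.55 and -0.50) and without the dog block (-0.73 and -0.59). CD27, a costimulatory receptor gene, did not pass, at -0.03. The integrin genes ITGA1 (-1.60) and ITGAE (-0.96), both tied to tissue retention, fell, and so did the inhibitory receptor gene CTLA4 (-1.78). Both integrin genes were also called lower against the naive-marked GZMK-negative cells described below. Neither was called against the effector-marked ones. The genes with the strongest falls included NKAIN2 (-3.68), PTPRK (-3.34), a receptor tyrosine phosphatase, RALGPS2 (-3.18), SLCO3A1 (-2.98), SAMD4A (-2.94), STBD1 (-2.86) and PSEN2 (-2.84), the last a presenilin.

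Of 11 chemokine and cytokine genes, CCL4 and CCL5 (0.97, higher in 13 of 17 dogs) rose, and TNFSF8 and LTB fell. The call on CCL5 was lost with healthy dogs alone (0.58) and without the dog block (0.68, adjusted p = 0.515 by edgeR). Of 23 homing receptors and integrins 3 rose and 3 fell, and the rises included CX3CR1 (0.62) and ITGB2 (0.59), the shared β2 integrin chain. The call on CX3CR1 was lost without OS dog 1 (0.58), 2 (0.57), 6 (0.51) or 8 (0.57), with healthy dogs alone (0.38), with at least 2 GZMK UMIs (0.49) and without the dog block (0.57). Further rises among well-measured genes were PPFIA2 (1.24), FABP3 (1.23), a fatty acid binding protein, CSF1 (1.15), a macrophage growth factor, TENM1 (1.13) and NEO1 (1.10). PPFIA2 (1.20) and CSF1 (1.12) were not called without the dog block. The cell cycle genes RRM2 (1.73), TK1 (1.35) and CDK1 (1.82) rose at mean levels under 10 CPM, and the other 10 cell cycle genes tested did not pass. No gene passed among 17 T cell receptor signaling and 15 interferon genes tested, counts that lie near the background of 1.22% higher and 2.43% lower over all genes. Gene sets drawn from clusters of these same dogs are no independent evidence. Of 8 memory CD8 genes tested 6 were higher, and of 10 effector CD8 genes 8 were higher. Of 6 naive CD8 genes, ADGRG1 was higher and LEF1 and ITGA1 were lower, with 3 positive values and a median of 0.101. Genes of γδ T cells that resemble CD8 T cells were lower in 7 of 11 cases (median -1.36), among them SULT2B1 and SOX4. Of 8 genes of other γδ T cells 3 were lower (median -0.98), and of 7 CD4 T cell genes 3 were lower (median -0.80). Of 8 genes of T cells without CD4 and CD8, 3 were lower and KIAA0825 was higher (median -0.42). No gene passed in the B cell, monocyte and neutrophil, NK and platelet lists, of 6 to 11 genes tested, again near that background.

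**Figure D1:**
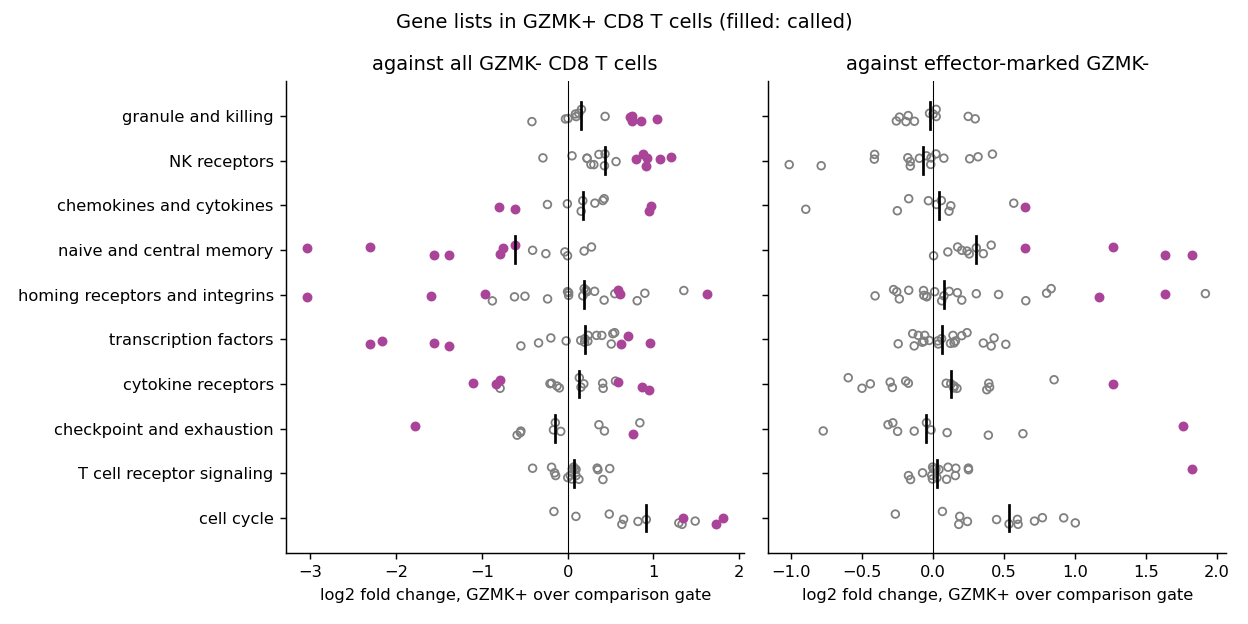
Log2 fold changes of members against GZMK-negative CD8 T cells and against the effector-marked GZMK-negative cells, by gene list, with 1 point per gene, called genes filled and a bar at the list's median. Naive and central memory genes lie mostly below 0 in the first comparison, with a median of -0.61, and above 0 in the second, with a median of 0.305.

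Many of these calls did not hold at a common depth. The median depth of a dog, averaged over dogs, was 5153.56 UMIs per cell in members and 5638.24 in GZMK-negative cells. Drawing cells down also changed which cells were members and left fewer of them, such as 334 against 765 in OS dog 9. The genes tested went from 13155 to 10341 as well, so the part of depth alone was not tested. When every cell was drawn down to 2000 UMIs and the gates were set again, 8 genes were higher and 66 lower, and 15 dogs had enough cells. Most of the rises named above were then no longer called. These were the chemokine CCL4 (0.42), the granule genes FASLG (0.20), GZMA (0.23) and PRF1 (0.20), with CST7 turned to -0.038, the receptors KLRK1 (0.57), KLRG1 (0.60), KLRD1 (0.40), KLRB1 (0.33), NCR3 (0.21) and PDCD1 (0.52), and the transcription factors EOMES (0.50), TBX21 (0.0597) and PRDM1 (0.17). CX3CR1 (0.30), PPFIA2 (0.55), FABP3 (0.25), CSF1 (0.54), TENM1 (0.32) and NEO1 (0.60) lost their calls too, as did the falls of TCF7 (-0.65), IL7R (-0.48) and LTB (-0.34). GZMB (0.61), CCL5 (0.59), LEF1 (-2.23), BACH2 (-1.49) and CCR7 (-2.67) kept theirs. For SLAMF7, IL18R1, IL18RAP, CD38, ITGB2, RRM2, TK1 and CDK1 the alternatives, this one included, were not examined gene by gene. Nor were they for FOXP1, ITGA1, ITGAE and TNFSF8, so whether any of these calls held is not known here.

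The GZMK-negative gate held cells of several kinds, so 2 subsets were compared next. Naive-marked cells (1503 cells) had LEF1 or CCR7 and no CCL5, GZMA or GZMB. Effector-marked cells (1330 cells) had CCL5 together with GZMA or GZMB. The genes that set a marking were left out of the test against the cells with that marking. LEF1 and CCR7 were therefore still tested against effector-marked cells. Of the members, 2554 would have met the effector marking, from 22.7% to 96.3% of a dog's members.

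Against naive-marked cells of 14 dogs, 1072 of 12598 genes (8.51%) were higher in members and 783 (6.22%) were lower. The marking chose cells with naive genes and without effector genes. Rises of effector genes and falls of naive genes in members therefore describe that choice in part and are no independent evidence. CCL4 ranged over 334, 497 and 675 CPM in members and 0, 9.66 and 59.3 CPM in naive-marked cells of the same dogs, and the gates did not overlap (log2 fold change 4.65, SE 0.254). PI3, which encodes the protease inhibitor elafin, had a log2 fold change of 6.34. THEM5 (5.48), NCR3 (4.98), CSF1 (4.77), FABP3 (4.56), DZIP1 (4.53) and KLRB1 (4.53) rose as well. NK-type receptors rose in 13 of 15 tested (median 3.76), and 9 of 13 cell cycle genes rose. MKI67, among these cell cycle genes, stood at a mean of 2.39 CPM in members with 1 GZMK UMI. In members with 4 or more it stood at 31.2 ± 49.4 CPM (SD, n = 11 dogs). Markers of other cells were higher too. Of 5 NK genes tested 3 rose, IGSF3, STMN2 and KLRF1 (median 2.90), and of 11 monocyte and neutrophil genes 10 had positive values (median 0.70) and S100A8 and SERPINA1 rose. Their part in the values here was not tested. EOMES (3.72), TBX21 (3.67) and PDCD1 (2.91) rose in all 14 dogs.

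TCF7 fell by 2.22 and ranged over 22.7, 41.4 and 105 CPM in members and 109, 210 and 318 CPM in naive-marked cells. IL7R ranged over 128, 263 and 488 CPM in members against 533, 708 and 1361 CPM and did not overlap (log2 fold change -1.64). ANGPTL1 (-5.10), PTPRK (-4.77), GNMT (-4.35), RALGPS2 (-4.27), SAMD4A (-4.17), CSTA (-4.12), STBD1 (-4.04) and SLCO3A1 (-3.99) fell too. Even so, members kept measurable IL7R and TCF7 in every dog. Drawn down to 2000 UMIs per cell, 347 genes were higher and 268 lower in the 7 dogs with enough cells. CCL4 (3.80) and TCF7 (-1.85) kept their calls, and PDCD1 (2.15) and THEM5 (3.41) lost theirs.

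Against effector-marked cells the contrast was small. In 12 dogs, 24 of 12243 genes (0.196%) were higher in members and 15 (0.123%) were lower. IL7R and CD28 were among the higher genes, but neither was called when only members with the same effector marking were used (0.46 and 1.07, described below). IL7R (ENSCAFG00000018752) ranged over 128, 251 and 465 CPM in members and 0, 77.5 and 382 CPM in effector-marked cells. The ranges overlapped, but every dog was higher in its members (log2 fold change 1.26, SE 0.127, adjusted p = 4.48e-10 by edgeR). CD28, the costimulatory receptor lost by late effector cells, ranged over 9.09, 20.4 and 56.1 CPM against 0, 4.20 and 33.4 CPM and was higher in 12 of 12 dogs (log2 fold change 1.82, SE 0.238, adjusted p = 3.53e-07 by edgeR).

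LTB (0.65), CCR7 (1.63), CTLA4 (1.76), GPR183 (0.89), an oxysterol receptor that guides lymphocyte migration, PPFIA2 (1.18), KIAA0825 (1.00), SPTBN1 (0.90), a spectrin, CCDC167 (0.80), PLXNC1 (0.80), a semaphorin receptor, GALNT17 (1.44) and the ubiquitin ligase gene NEDD4 (0.64) also rose. GPR183, PLXNC1 and GALNT17 lay outside the rule for named genes and were picked after their values were seen, like MDM1 below. The call on LTB was lost without healthy dog 4 or OS dog 4 (0.57 each), that on CTLA4 without OS dog 4 (adjusted p = 0.012 by edgeR), and that on NEDD4 under 12 of 17 alternatives. By DESeq2 the call on LTB was lost (0.57), and CD28, CCR7 (1.68) and CTLA4 (1.78) were higher by value but received no adjusted p. Of 13 naive and central memory genes 4 rose, namely IL7R, LTB, CD28 and CCR7 (median 0.305, against 0.0429 over all genes), and the other 9 had positive values without passing, such as TCF7 at 0.24. Marker lists of other T cells leaned the same way. Of 8 genes of T cells without CD4 and CD8, 7 had positive values (median 0.79), and KIAA0825 and KANK1 rose. All 6 CD4 T cell genes tested had positive values (median 0.48), and CTLA4 rose. The part of such cells in these values was not tested.

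**Figure D2:**
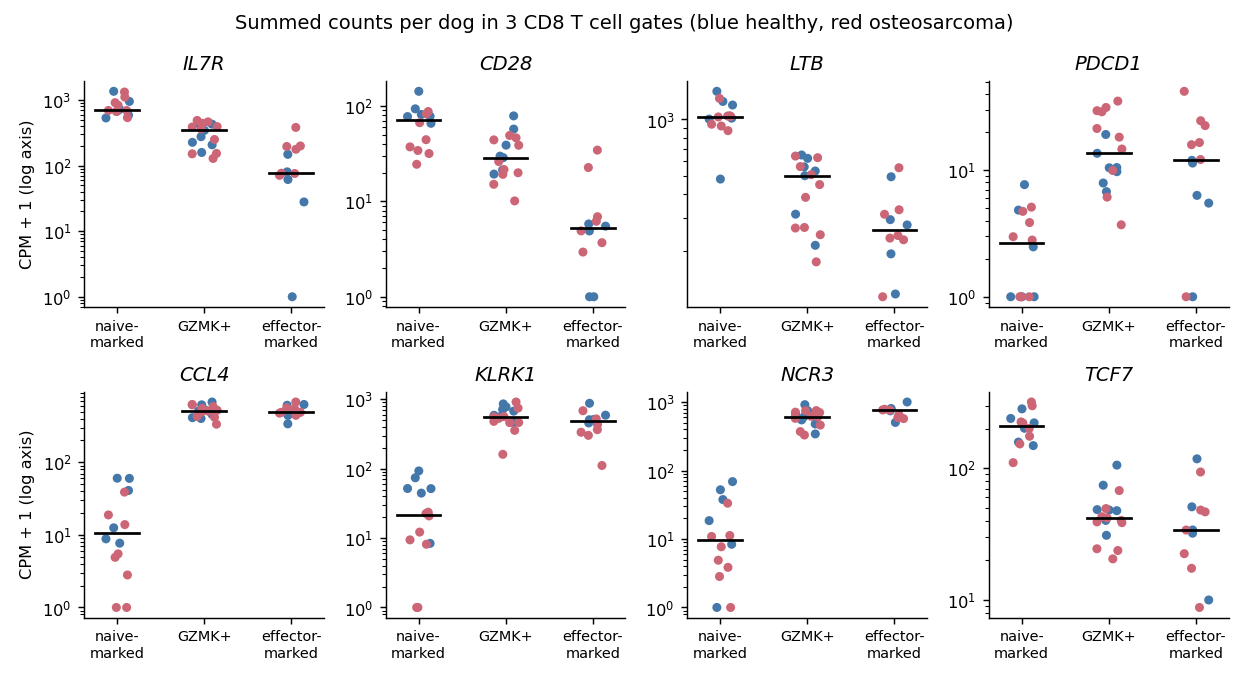
CPM per dog (log axis) of genes in members, effector-marked and naive-marked GZMK-negative CD8 T cells, with 1 point per dog (blue healthy, red OS) and a bar at the median, each value shown as CPM + 1. IL7R has a median of 344 CPM in the members of 17 dogs, 77.5 in effector-marked cells of 12 dogs and 708 in naive-marked cells of 14 dogs, whereas CCL4 has medians of 505, 493 and 9.66.

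Against effector-marked cells, where 0.196% of all genes were higher and 0.123% lower, no gene passed among 11 granule genes, 16 NK-type receptors and 21 transcription factors, and at that background a count of 0 says nothing particular about these lists. CCL4 stood at 508 ± 95.3 CPM (SD, n = 12 dogs) in members and 515 ± 93.2 CPM in effector-marked cells, with a log2 fold change of 0.02. PDCD1 ranged over 2.70, 10.8 and 34.1 CPM in members and 0, 11.04 and 41.0 CPM in effector-marked cells, with a log2 fold change of 0.10. Neither was called. ITGAM, the gene of the αM integrin chain, at -0.41, was lower in 12 of 12 dogs, and ZEB2, a factor of terminal effector cells, at -0.24, in 10 of 12, both under the fold threshold. PI3, far higher in members than in naive-marked cells, was lower here at -0.54 (adjusted p = 0.000542 by edgeR), under the threshold. It was called lower at 2000 UMIs and without healthy dog 5, healthy dog 7 or OS dog 4. FCER1G (-0.41, adjusted p = 0.0298 by edgeR) and IL2RB (-0.19, adjusted p = 0.0504 by edgeR), a signaling chain and a cytokine receptor chain, were not called.

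The lower genes included neutrophil granule genes, CAMP (-3.14), PGLYRP1 (-3.03), LTF (-2.07) and S100A12 (-1.75), each lower in 4 to 7 of 12 dogs only, named after their values were seen. S100A12 was the 1 of 11 genes of the monocyte and neutrophil list that passed, and its call was lost without healthy dog 4 (-1.14), OS dog 4 (-1.20) or OS dog 9 (-1.77), by DESeq2 (-0.63), with edgeR's expression filter (-1.78) and at 2000 UMIs. LTF also lost its call with that filter and stood at 0.18 at 2000 UMIs. With doublets removed neither S100A12 (-1.57, adjusted p = 0.0441 by edgeR) nor LTF (-1.71, adjusted p = 0.0208) was called, while CAMP (-2.05) and PGLYRP1 (-3.30) were. CAMP was not called by DESeq2 (-1.80). The summed level of that list was 824 to 5082 CPM in members of 17 dogs and 943 to 7992 CPM in effector-marked cells of 12 dogs, with FCN1 at 0, and its part in these values was not tested. FREM1, from the NK list, was lower at -0.83, a call lost without healthy dog 2 (-0.72) or OS dog 7 (-0.66), by DESeq2 (-0.90), with edgeR's expression filter (-0.86), at 2000 UMIs (-0.66) and with members of the same marking (-0.52).

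Members of any kind were set against cells chosen for effector genes, so the comparison was repeated with the effector-marked members only, an alternative added after the data were seen. Then 4 genes were higher and 14 lower. KIAA0825 (0.81, adjusted p = 2.76e-04 by edgeR), PLXNC1 (0.65) and MDM1 (0.61) were among the higher genes. IL7R at 0.46 (adjusted p = 0.015 by edgeR), CD28 at 1.07 (adjusted p = 0.0546), LTB at 0.28, CCR7 at 0.86, CTLA4 at 0.69 and GPR183 at 0.44 were not, nor were PPFIA2 at 0.37, SPTBN1 at 0.25, CCDC167 at 0.48 and GALNT17 at 0.52. Drawn down to 2000 UMIs per cell, the full comparison, in the 8 dogs with enough cells, called 3 genes higher and 4 lower, among them IL7R (1.03) and LTB (0.79), but not CD28 (1.45). PPFIA2 (0.32), SPTBN1 (1.41), CCDC167 (0.35), GALNT17 (1.06), KIAA0825 (0.82), PLXNC1 (0.46) and MDM1 (0.42) were not called there either, and MDM1 was not called by DESeq2 or with edgeR's expression filter, which also lost PPFIA2 (1.16). CCR7, CTLA4, GPR183 and NEDD4 lost their calls at 2000 UMIs as well.

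Members differed among themselves with the number of GZMK UMIs, which the rule had used only as a minimum of 1. These values are a description without a test, over the 11 dogs with at least 25 cells in each class. From members with 1 GZMK UMI to those with 4 or more, IL7R went from 172 ± 81.9 to 525 ± 313 CPM (mean ± SD, n = 11 dogs), CD28 from 13.6 ± 9.85 to 60.7 ± 35.6 CPM, and LTB from 330 ± 111 to 715 ± 371 CPM. All 3 were higher in each of the 11 dogs. ICOS (52.0 to 102 CPM), an inducible costimulator, and GPR183 (46.4 to 84.2 CPM) were likewise higher in 11 of 11 dogs.

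Other genes, chosen like GPR183 after their values were seen, were lower. ZEB2, a factor of terminal effector cells, went from 1110 to 647 CPM and the chemokine CCL3 from 34.6 to 14.0 CPM, both lower in 11 of 11 dogs. CX3CR1, the fractalkine receptor, went from 74.1 to 47.6 CPM and PRF1 from 41.0 to 27.8 CPM, each lower in 10 of 11 dogs. FCER1G went from 241 to 108 CPM and was lower in 9. NCR3 (673 to 487 CPM) and IL2RB (484 to 351 CPM) were lower in 11 of 11 dogs. GZMA (731 to 522 CPM), KLRB1 (748 to 527 CPM) and EOMES (29.6 to 23.3 CPM) were lower in 9. KLRK1 went the other way, from 508 to 597 CPM, and was higher in 9. GZMB (1337 to 1295 CPM), KLRG1 (70.5 to 69.5 CPM) and PDCD1 (18.6 to 17.4 CPM) differed by far less than their spread between dogs. CD8A went from 315 to 285 CPM, and MKI67 from 2.39 ± 4.83 to 31.2 ± 49.4 CPM with a wide spread. Median depth was 5060 UMIs per cell in the lowest class, 5067 in the middle class and 5672 in the highest, and its part in these values was not tested.

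**Figure D3:**
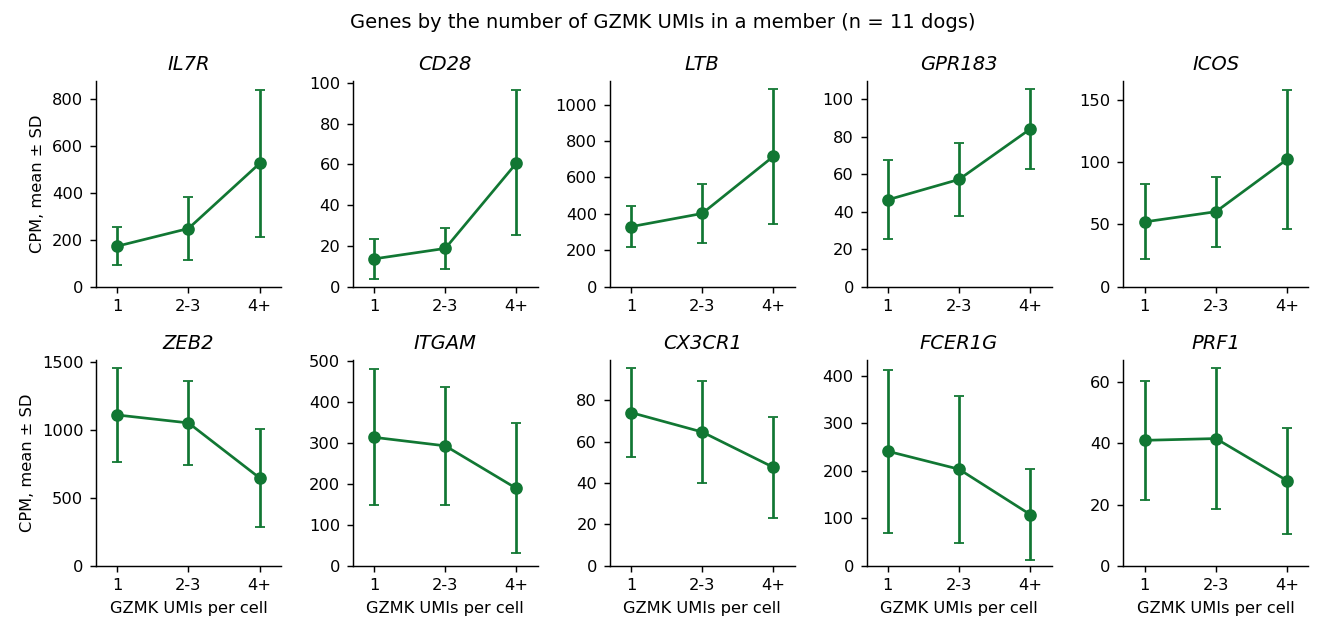
Level by number of GZMK UMIs per member (1, 2 to 3, 4 or more), as CPM, mean ± SD over 11 dogs. IL7R and CD28 are higher and ZEB2 is lower in members with 4 or more UMIs in all 11 dogs.

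The next comparison asked whether the members were more or less frequent in dogs with OS. They made up 1.78% of kept cells in the lowest healthy dog, 3.35% in the median and 8.49% in the highest, and 1.25%, 4.62% and 13.3% in OS dogs. The groups overlapped over nearly their whole range, at 4.35% ± 2.22 (SD, n = 7) and 5.39% ± 3.66 (SD, n = 10), with p = 0.601 by the exact Wilcoxon rank-sum test, which was two-sided here, and 0.888 after adjustment over 6 share tests. The difference of 1.04 points was 0.158 points without OS dog 9, 0.539 without OS dog 1, 0.610 without healthy dog 3 and 1.73 without healthy dog 5. The smallest p this design allows is 0.000103. Of CD8 T cells, members were 50.1% ± 13.0 in healthy and 51.6% ± 15.2 in OS dogs (exact p = 1), and the sign of that difference turned without healthy dog 2 (-1.43 percentage points), healthy dog 4 (-1.71), OS dog 1 (-0.829) or OS dog 9 (-1.70).

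Within the members, shares with a UMI of a gene were compared after each cell was drawn down to 2000 UMIs and the gates were set again. The members at 2000 UMIs were therefore another and smaller set than at full depth. Healthy dog 1 had 44 against 179 at full depth, and OS dog 2 had 64 against 273. GZMB was found in 65.8% ± 15.9 of healthy and 77.6% ± 9.45 of OS members (exact p = 0.0878, adjusted 0.326), and in 83.2% and 87.8% at full depth. The GZMB difference of 11.8 points was 6.17 points without healthy dog 2 (exact p = 0.181) and 13.3 points without OS dog 2 (exact p = 0.0418), neither adjusted. LEF1 or CCR7 was found in 19.4% ± 6.23 and 13.0% ± 8.48 (exact p = 0.109, adjusted 0.326), and without OS dog 7 the difference was -8.12 points (exact p = 0.0311, not adjusted). CCL4 was found in 52.7% and 54.7%, with the sign turned at -0.00702 points without healthy dog 2. At 2000 UMIs healthy dog 2 had 22 members and OS dog 3 had 14. PDCD1 was found in 2.47% and 3.89%, a difference of 1.42 points that was 0.984 without OS dog 2 and 2.41 without healthy dog 6, and in 5.24% and 8.15% at full depth. None of the 6 share tests passed after adjustment.

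**Figure D4:**
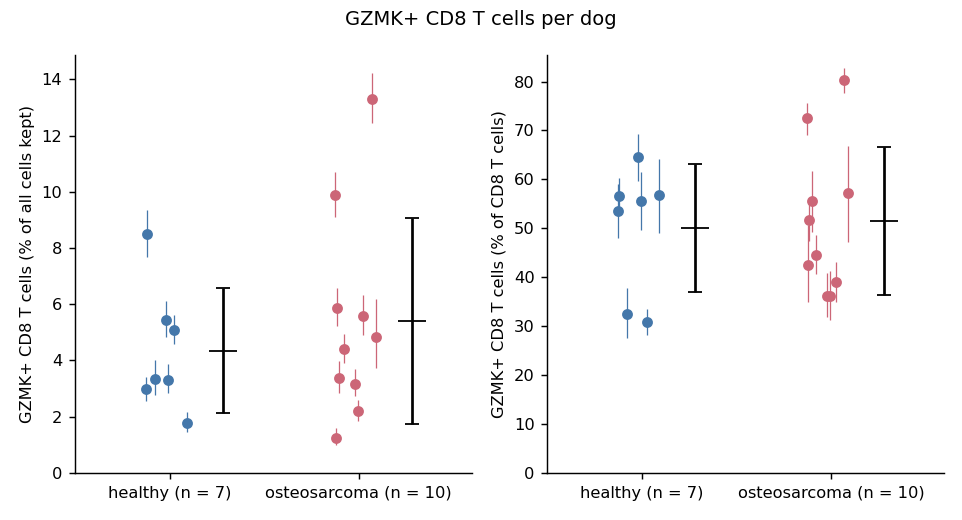
Members as a percent of kept cells and of CD8 T cells, 1 point per dog with its 95% binomial interval (counting error only) and the group mean ± SD in black. The 7 healthy and 10 OS dogs overlap in both, with means of 4.35% and 5.39% of kept cells.

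In gene expression, no gene of 12065 tested (0%) was called between OS and healthy members by edgeR, and none by DESeq2. At an unadjusted p under 0.05 edgeR had 592, fewer than 5% of the genes tested. With 200 genes changed 2-fold in simulated counts of these dogs, the same test called 40.0% of them, and 80.0% of the ones averaging 50 or more counts, so changes of this size were often missed at this depth. CCL5 varied widely between dogs. It stood at 352, 1030 and 3105 CPM in healthy dogs (lowest, median and highest) and at 869, 2748 and 8241 CPM in OS dogs. The groups overlapped, although 9 of 10 OS dogs lay above the healthy median (log2 fold change 1.12, SE 0.458, adjusted p = 0.950 by edgeR).

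PDCD1 stood at 5.76, 9.44 and 18.1 CPM in healthy dogs and 2.70, 18.8 and 34.1 CPM in OS dogs, with overlap and a log2 fold change of 0.94 (SE 0.370, adjusted p = 0.950 by edgeR). GZMB stood at 489, 998 and 1509 CPM against 932, 1205 and 2631 CPM, with a log2 fold change of 0.47. CCL4 was close between groups, at 400, 505 and 675 CPM against 334, 513 and 624 CPM (log2 fold change -0.01). KLRG1 stood at 58.6, 87.8 and 144 CPM against 31.4, 56.5 and 106 CPM, with 1 of 10 OS dogs above the healthy median (log2 fold change -0.59, adjusted p = 0.950 by edgeR). IL2RB stood at 405, 525 and 720 CPM against 176, 350 and 624 CPM (log2 fold change -0.50, adjusted p = 0.969 by edgeR). Values for FCER1G (-0.29), TCF7 (-0.55), CCR7 (-0.84), LEF1 (-0.36), IL7R (0.11) and GZMA (0.22) were also not called. Under alternatives, none of them called, FCER1G ranged from -0.87 to -0.057, TCF7 from -0.69 to -0.11 and CCR7 from -1.31 to -0.61. PDCD1 ranged from 0.43 to 1.16, KLRG1 from -1.04 to -0.41 and IL2RB from -0.70 to -0.35.

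**Figure D5:**
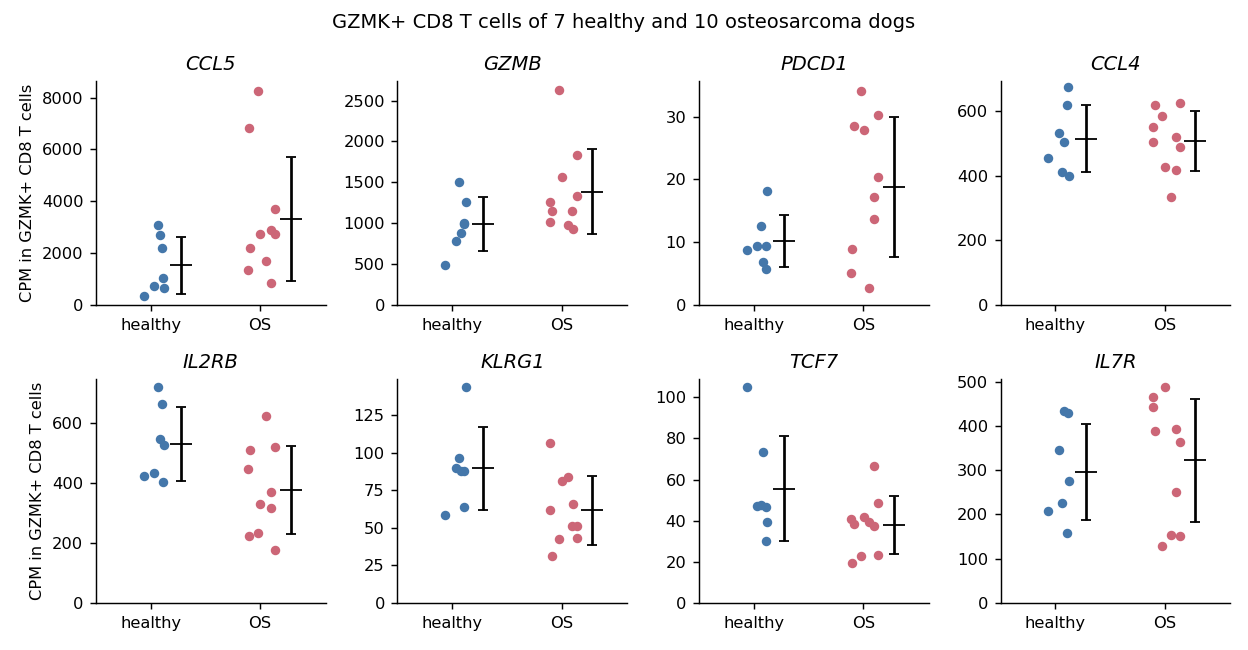
CPM per dog in members of 7 healthy and 10 OS dogs, with the group mean ± SD in black. The groups overlap for each gene, and CCL5 spans 352 to 3105 CPM in healthy and 869 to 8241 CPM in OS dogs.

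The genes with the smallest unadjusted p, none of them called, were ADH5 (1.05), an alcohol dehydrogenase, NFKBIA (1.11), an inhibitor of NF-κB, and FN1 (1.71), fibronectin, with positive values, and IL18RAP (-0.73), RPS27AP5 (-1.50) and LIMCH1 (-1.46) with negative values. All had an adjusted p of 0.950 by edgeR and overlapped between groups. Their values moved under alternatives without a call. ADH5 was 2.296 at 2000 UMIs, FN1 was 0.35 without doublets and 0.81 at 2000 UMIs, IL18RAP was -0.27 at 2000 UMIs, and NFKBIA was 0.76 without doublets. RPS27AP5 was -0.97 with the replicate block. By list, 13 of 15 interferon genes had positive values in OS (median 0.42, against 0.0103 over all genes), 12 of 16 immediate early genes did (median 0.26), 2 of 13 naive and central memory genes did (median -0.36), and 1 of 13 cell cycle genes did (median -0.64). All 11 monocyte and neutrophil genes tested had positive values as well (median 1.29). Their summed level was 824 to 3121 CPM in healthy and 1407 to 5082 CPM in OS members, led by S100A8, and FCN1 was at 0. All 6 platelet and erythrocyte genes had positive values (median 1.01), with summed levels of 6.20 to 110 and 0 to 208 CPM. The part of such transcripts in the values above was not tested. The CD79A gene model stood at 7719 CPM in members and 6051 CPM in B cells, and the B cell and plasma cell list without it summed to 22.5 to 106 CPM in members.

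Lastly, the disease difference in members was tested against that in GZMK-negative CD8 T cells of the same dogs by an interaction term. None of 13155 genes (0%) was called by edgeR, with 514 (fewer than 5%) at an unadjusted p under 0.05, and none by DESeq2. The smallest p values belonged to C15H1orf185 (0.79), CD160 (0.88), an inhibitory receptor, and FGD4 (1.10) with positive values and to DUT (-0.78), TESPA1 (-0.63) and EPHX1 (-0.79) with negative values, none called. CCL5 differed by 0.70, FCER1G by 0.93, IL2RB by 0.34 and PDCD1 by 0.38 on the log2 scale, all uncalled. With 2-fold changes in simulated counts this test called 49.0%, and 97.4% of the ones averaging 50 or more counts.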

How the data were processed

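Blood leukocytes of 7 healthy and 10 osteosarcoma dogs were profiled by 10x Genomics 3′ sequencing. The deposited files are matrices of UMI counts per gene and barcode, made by the authors with Cell Ranger 7.0.0 on CanFam3.1. Whether intronic reads entered the deposited counts is not given in the sources used here. Columns of other samples numbered 0. Barcodes with 200 to 4500 genes, 500 to 20000 UMIs and less than 10% mitochondrial UMIs were kept, 84361 of 93013. LYZ-high myeloid cells had at least 5 LYZ UMIs without CD3E, CD8A and MS4A1. NK-like cells had NCR3 and KLRF1 without CD3E, CD4, CD8A and MS4A1. Doublets were not removed in the main result. A caller in scanpy 1.11.5 was made to mark a preset share of 0.8% per 1000 barcodes, which came to 13 to 438 kept cells and 3.33% to 10.3% of members per dog, removed in an alternative. Its automatic threshold marked 3 to 291 cells per dog, among them 3 against 333 in OS dog 2, and was not used.

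UMI counts were summed per dog and gate (at least 25 cells, genes with at least 10 counts) and tested with edgeR 4.0.16 (TMM, R 4.3.3), with dog as a block within dogs. Genes that set a gate were not tested in the comparisons that used that gate. Replicates are separate dogs. Shares were compared by exact Wilcoxon rank-sum tests (scipy 1.17.1). Binomial intervals of shares cover counting error only. Named genes were the 8 with the largest change per direction among those called, at 20 CPM or more in the higher gate and alike in 15 of 17 dogs (in every dog where fewer entered), genes of 24 lists, the markers, and CCL5, FCER1G and IL2RB. Where none was called, the 3 with the smallest p per direction were named. Members and lists were chosen with earlier results of these data known. Some lists came from clusters of these same dogs. Genes such as NKG7, GNLY, GZMM, KLF2 and CD8B were not analysed here. Some genes that met the naming rule are not reported here. The tests were run on simulated data with 200 genes changed 2-fold, of which 77.0% (against GZMK-negative), 57.0% (effector-marked) and 67.5% (naive-marked) were called.

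Alternatives were DESeq2 1.42.0, edgeR's own expression filter, cells drawn down to 2000 UMIs, at least 2 GZMK UMIs, doublet removal, a stricter mitochondrial limit of 5%, 10 cells as the minimum, age as a covariate, no dog block, each disease group alone, and each dog left out.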

Additional observations from a re-analysis of the deposited data

Results flagged for a closer look

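Within groups of 7 or 10 dogs, the most extreme dog was compared with its nearest neighbour for 48 group values. Chance flags about 1 in 20 groups, and 5 were flagged.

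Healthy dog 2 had the lowest share of members with a GZMB UMI at matched depth, 31.8%, with the next dog at 63.6%. It had 22 members there, under the 25 cells required in other comparisons, and at full depth its share was 80.2% of 111 members, above the lowest healthy dog at 73.2%. OS dog 9, which gave the most members, stood above the other OS dogs in members for GZMA, at 1575 CPM against 755 in the next dog, for GZMB, at 2631 CPM against 1835, and for NFKBIA, at 62.5 CPM against 39.7. ADH5 stood at 50.2 CPM in OS dog 5, with the next dog at 26.1.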

How the results depend on the processing

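Of the counts and shares under alternatives, 246 kept their size or side, 17 moved, 2 became stronger and 6 turned sign. The 246 include the counts of the disease comparison and its interaction, which were 0 in the main fit and stayed at 0. Of 125 named gene results, 1973 values kept their direction and stayed called or stayed uncalled, 122 lost a call, 17 gained one, 29 turned sign and 6 had no adjusted p by DESeq2. Many of these results were uncalled in the main fit and had no call to lose. Against GZMK-negative cells, 160 higher and 320 lower genes became 8 and 66 at 2000 UMIs per cell, 36 and 213 without the dog block, and 67 and 166 in healthy dogs only, and 184 and 256 in OS dogs only. With edgeR's expression filter 213 were lower. Leaving out a dog gave 108 to 212 higher and 284 to 332 lower. Against effector-marked cells, 24 higher and 15 lower became 10 and 2 by DESeq2, 11 and 4 with the filter, 3 and 4 at 2000 UMIs, 29 and 9 without doublets, and 4 and 14 with members of the same marking, which, with doublet removal and dogs left out there, was chosen after seeing the data. Leaving out a dog gave 17 to 26 and 12 to 18. Against naive-marked cells, 2000 UMIs gave 347 and 268. In the disease comparison and its interaction, DESeq2 gave 429 and 289 genes at an unadjusted p under 0.05.

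Replicate numbers were given within groups and pair no dogs. For shares, the replicate block used dogs 1 to 7 of each group and left out OS dogs 8, 9 and 10. With it, the OS difference was 0.125 points of kept cells (exact permutation p = 0.922) and -3.19 points of CD8 T cells (p = 0.625). Leaving out a dog gave 0.158 to 1.73 points of kept cells, -1.71 to 3.91 points of CD8 T cells, and differences in member shares of 6.17 to 14.0 points for GZMB, -0.00702 to 3.75 for CCL4, 0.984 to 2.41 for PDCD1 and -8.23 to -5.09 for LEF1 or CCR7.

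Sign changes follow. Against GZMK-negative cells these were CST7, called at 0.75 (-0.038 at 2000 UMIs) and FCER1G, at 0.31 (-0.30 at 2000 UMIs, -0.15 in healthy dogs only). Against effector-marked cells these were CCL4 (-0.0317 DESeq2, -0.0184 filter, -0.0878 at 2000 UMIs, -0.00543 to 0.069 without a dog), LTF, called at -2.07 (0.18 at 2000 UMIs) and PDCD1 (-0.0351 at 2000 UMIs, -0.0159 to 0.20 without a dog). Between disease groups these were CCL4 (0.00169 DESeq2, 0.0178 at 2000 UMIs, 0.13 with at least 2 GZMK UMIs, 0.00711 without doublets, 0.00255 with the replicate block, -0.058 to 0.0813 without a dog), GZMA (-0.11 with the replicate block, -0.0489 to 0.41 without a dog) and IL7R (-0.11 at 2000 UMIs, -0.00232 with age). The causes were not tested.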
